A study of Mus musculus with 11 samples.

Results

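The genes described are 10 claudins that epithelia use: Cldn1, Cldn2, Cldn3, Cldn4, Cldn6, Cldn7, Cldn8, Cldn10, Cldn18 and Cldn23. They were chosen by name from the 19938 genes of a mouse stomach array series, with earlier results of these data known, and all 10 were measured. Each was read from the probe set that carries its symbol alone. Cldn10 has 2 such probe sets, and the one with the higher mean over the 11 arrays was used. Because the genes were chosen with results known, the adjusted p-values below, which come from a fit over all genes, describe the genes and are not independent evidence.

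Claudins are membrane proteins of the tight junction, the belt that seals neighbouring epithelial cells to each other near their apical surface. Their outer loops meet between the cells: Cldn4, Cldn1 and other members tighten the seal, while Cldn2 forms a pore for small cations and water and Cldn10 has variants that pass cations or anions. Cldn18 has a stomach and a lung form, made from alternative first exons, and the stomach form helps keep acid out of the gastric mucosa. Cldn3 and Cldn4 are receptors of the Clostridium perfringens enterotoxin, Cldn6 is a claudin of embryonic epithelia, and Cldn8 is known from the collecting duct of the kidney and from the colon.

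The series held 11 samples with 1 Affymetrix array each. The group NGE was normal gastric epithelium of Pdx1-1-Cre-negative mice (4 samples). The group pChePS_GC was gastric cancer tissue (4 samples) of mice with Pdx-1-Cre, 1 floxed Cdh1 allele (Cdh1F/+), and the alleles Trp53F/F as well as Smad4F/F. The group pCP_GC was gastric cancer tissue (3 samples) of mice with Pdx-1-Cre, Cdh1F/F and also Trp53F/F. Both tumour groups carry the histology label diffuse-type. Floxed Trp53 and the Cre driven from Pdx1, a gene active in the gastric antrum, duodenum and pancreas, are shared by both tumour groups. The labels give no age, sex or region of the stomach, do not say whether NGE mice carry floxed alleles, and do not state whether each sample came from its own mouse. The p-values therefore measure only the spread between these samples.

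Values are log2 signals, in which a step of 1 is a 2-fold difference, and array medians lay between 7.627 and 7.81. Groups were compared with limma, a linear model that shares a gene's spread over the 3 groups, and a gene passed at an adjusted p under 0.05. Of all genes 42.1% passed in pChePS_GC against NGE (18.7% higher, 23.4% lower) and 51.8% in pCP_GC against NGE (20.0% higher, 31.8% lower). Of 17 measured genes of epithelial identity, whose mean level was 11.67 to 12 in NGE, 11.49 to 11.98 in pChePS_GC and 11.54 to 12.19 in pCP_GC, 3 were higher and 5 lower in pChePS_GC and 2 were higher and 3 lower in pCP_GC. NGE was normal epithelium and the tumours are labelled as cancer tissue: the mean level of 10 fibroblast genes ran from 7.7 to 7.95 in NGE, from 10.48 to 11.43 in pChePS_GC and from 10.46 to 11.51 in pCP_GC, with 10 and 9 of the 10 higher. All 10 endothelial genes were higher in both tumour groups, as were 6 of 6 smooth muscle genes and 9 of 11 macrophage and leukocyte genes. Of the gastric lines, 9 of 10 parietal, 9 of 10 surface mucous and 6 of 6 chief cell genes were lower in pChePS_GC, and 8, 2 and 5 were lower in pCP_GC. The part of these shifts in the claudin results was not tested, and in such bulk samples fewer cells of a type and less RNA per cell cannot be told apart. The X-silencing RNA Xist was at 11.54 to 12.66 in NGE and 5.57 to 6.02 in tumours, and Y-linked Eif2s3y at 4.94 to 5.19 in NGE and 8.08 to 11.09 in tumours: sex-linked levels are opposite between NGE and the tumour groups. These ranges do not overlap, so for every gene compared with NGE this split cannot be told apart from the difference between normal and tumour tissue. Xist and Eif2s3y were looked at as checks and are outside the rule for named genes.

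The start sites of the 4 claudins that hold the letters CACCTG, and those of Cldn18, are shown because the Zeb and Snail repressors, which are reported on with the claudins here, bind these letters. RefSeq windows of 300 bases (GRCm38.p6; 250 before to 50 after each start) were found for 8 of the 10 genes, in 11 windows. Below are 150 bases before to 30 after the start for Cldn4, the second start of Cldn7, Cldn6 and both starts of Cldn18, and the last 30 bases of the Cldn3 window. Each reads 5′ to 3′ on the gene's strand, and capitals mark CACCTG or its reverse complement CAGGTG.
Cldn4, chr5:134946905-134947084, minus strand: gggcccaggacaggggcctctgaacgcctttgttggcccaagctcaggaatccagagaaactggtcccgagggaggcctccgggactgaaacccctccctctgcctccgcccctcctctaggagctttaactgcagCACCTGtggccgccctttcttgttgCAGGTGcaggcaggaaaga
Cldn7, chr11:69965271-69965450, plus strand: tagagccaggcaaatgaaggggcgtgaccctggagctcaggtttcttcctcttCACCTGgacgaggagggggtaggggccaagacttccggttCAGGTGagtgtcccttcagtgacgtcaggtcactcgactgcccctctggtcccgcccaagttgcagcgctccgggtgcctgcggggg
Cldn6, chr17:23679215-23679394, plus strand: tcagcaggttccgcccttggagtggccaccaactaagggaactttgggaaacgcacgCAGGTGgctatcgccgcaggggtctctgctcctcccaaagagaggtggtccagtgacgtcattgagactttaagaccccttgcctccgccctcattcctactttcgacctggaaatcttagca
Cldn3, chr5:134986234-134986263, plus strand: aaagccacaggCAGGTGcaggggcagtctc
Cldn18 first start, chr9:99717238-99717417, minus strand: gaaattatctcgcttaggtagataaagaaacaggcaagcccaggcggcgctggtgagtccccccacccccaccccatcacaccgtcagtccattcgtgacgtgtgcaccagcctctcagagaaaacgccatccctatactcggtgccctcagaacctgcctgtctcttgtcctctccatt
Cldn18 second start, chr9:99710034-99710213, minus strand: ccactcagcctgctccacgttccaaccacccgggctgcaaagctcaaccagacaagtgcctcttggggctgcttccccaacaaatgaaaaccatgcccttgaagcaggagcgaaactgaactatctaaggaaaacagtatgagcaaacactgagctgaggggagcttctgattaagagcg

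CACCTG on either strand was present in 20.2% of all 32851 windows of this length. Among the claudins it was present in 4 of 11 windows, at positions -14 and 12 of Cldn4 (counted from the start, where 1 is the first transcribed base), 32 of Cldn3, -97 and -57 of Cldn7, and -93 and 41 of Cldn6. Neither Cldn18 window held the letters, nor did the first window of Cldn7 or the windows of Cldn1, Cldn2 and Cldn10. Of the other motifs searched on both strands, TGANTCA (AP-1; 7.81% of all windows) was at -240 and -158 of Cldn4. AGATAA, read by GATA factors and present in 11.2% of windows, was at -146 and -131 of the first Cldn18 start and -224 of Cldn10. GGGCGG (Sp1, in 35.7% of all windows) was in 6 of the 11 claudin windows. None of these matches overlapped another. A match is a description of letters and says nothing of binding.

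Cldn18, the gastric claudin, stayed bright in every array and was lower in pChePS_GC than in NGE by 1.45-fold. Its signals were 13.81, 13.79, 13.76 and 13.88 (NGE), 13.32, 13.33, 13.16 and 13.27 (pChePS_GC) and 13.72, 13.30 and 13.62 (pCP_GC). Every tumour array lay below every NGE array, by a small margin. NGE averaged 13.81 ± 0.05 (SD, n = 4), pChePS_GC 13.27 ± 0.08 (SD, n = 4) and pCP_GC 13.55 ± 0.22 (SD, n = 3). Cldn18 was lower in pChePS_GC by a log2 difference of -0.54 (SE 0.10, limma adjusted p = 0.0016), and its difference in pCP_GC was -0.26 (95% interval -0.49 to -0.03, limma adjusted p = 0.0541), which misses the threshold of 0.05. The pCP_GC difference passed with each array centred on its median (limma adjusted p = 0.00723), with a variance trend and robust prior (0.0378), with array weights (0.0403) and without pCP_GC replicate 1 (0.0278), and it was -0.14 without pCP_GC replicate 2. Over all alternatives the pCP_GC difference ran from -0.48 to -0.09, with limma adjusted p-values up to 0.563. The highest value on any array was 14.368 to 14.557, so Cldn18 lay close to the top of the scale. Whether its signal is compressed there was not tested.

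The claudin that passed as lower in both tumour groups was Cldn8, known as a paracellular barrier to sodium in distal tubule and colon. Its signals were 8.86, 9.56, 9.02 and 8.98 (NGE), 7.22, 7.51, 6.86 and 8.41 (pChePS_GC) and 8.06, 7.12 and 6.89 (pCP_GC). The lowest NGE array was above the highest tumour array. Cldn8 fell by 1.61 in pChePS_GC (SE 0.34, 3.04-fold, limma adjusted p = 0.004); the pCP_GC level fell by 1.75 (SE 0.36, 3.36-fold, limma adjusted p = 0.00299), in all 4 and all 3 arrays.

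Cldn2, the pore-forming claudin, rose most in pCP_GC. Its signals were 6.90, 6.56, 6.94 and 7.0 (NGE), 8.90, 10.36, 10.52 and 11.45 (pChePS_GC) and 11.04, 10.45 and 11.66 (pCP_GC). All 7 tumour arrays were above all 4 NGE arrays, and pChePS_GC replicate 1 was the lowest of them. Cldn2 rose by 3.46 in pChePS_GC (SE 0.45, 11-fold, limma adjusted p = 0.000193) and by 4.20 in pCP_GC (SE 0.48, 18.4-fold, limma adjusted p = 0.000101). Its NGE mean of 6.85 lay under 7.24, which is the level that 95% of 1190 odour and pheromone receptor genes stay below in that group. Where such a level is background, the rise is a lower bound. Cldn2 lies on the X chromosome, and the NGE and tumour arrays have opposite sex-linked levels. The part of this in its rise was not tested and, as for every claudin compared with NGE, cannot be told apart here.

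Of the 4 claudins that rose in both tumour groups, Cldn7, a claudin of many simple epithelia, was the most even among tumours. Its signals were 7.83, 7.95, 7.89 and 8.59 (NGE), 11.80, 11.50, 11.65 and 11.60 (pChePS_GC) and 11.47, 11.05 and 11.88 (pCP_GC). The tumour arrays spanned 0.83 and the nearest of them was well above the highest NGE array. Cldn7 rose by 3.57 in pChePS_GC (SE 0.20, 11.9-fold, limma adjusted p = 7.73e-07) and by 3.40 in pCP_GC (SE 0.21, 10.5-fold, limma adjusted p = 2.6e-06).

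Cldn4, a barrier claudin and toxin receptor, had signals of 8.83, 8.65, 8.89 and 9.30 (NGE), 12.58, 11.42, 12.35 and 12.31 (pChePS_GC) and 11.60, 10.71 and 11.54 (pCP_GC). No tumour array reached down to the NGE arrays. Cldn4 rose by 3.25 in pChePS_GC (SE 0.27, 9.5-fold, limma adjusted p = 1.01e-05) and by 2.36 in pCP_GC (SE 0.29, 5.15-fold, limma adjusted p = 0.000167).

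Cldn3, its chromosome neighbour and fellow toxin receptor, had signals of 8.64, 8.44, 8.85 and 8.78 (NGE), 9.57, 9.83, 11.07 and 11.39 (pChePS_GC) and 10.27, 8.09 and 10.07 (pCP_GC). The pChePS_GC arrays were all above NGE, while pCP_GC replicate 2 was below every NGE array. Cldn3 rose by 1.79 in pChePS_GC (SE 0.50, 3.45-fold, limma adjusted p = 0.0175), and its difference in pCP_GC was 0.80 (95% interval -0.40 to 2.00, limma adjusted p = 0.237). The pCP_GC value rested on single arrays: it was 1.49 (limma adjusted p = 0.0243) without replicate 2, 0.41 without replicate 1 and 0.50 without replicate 3, and it passed with array weights (limma adjusted p = 0.0101).

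**Figure D1:**
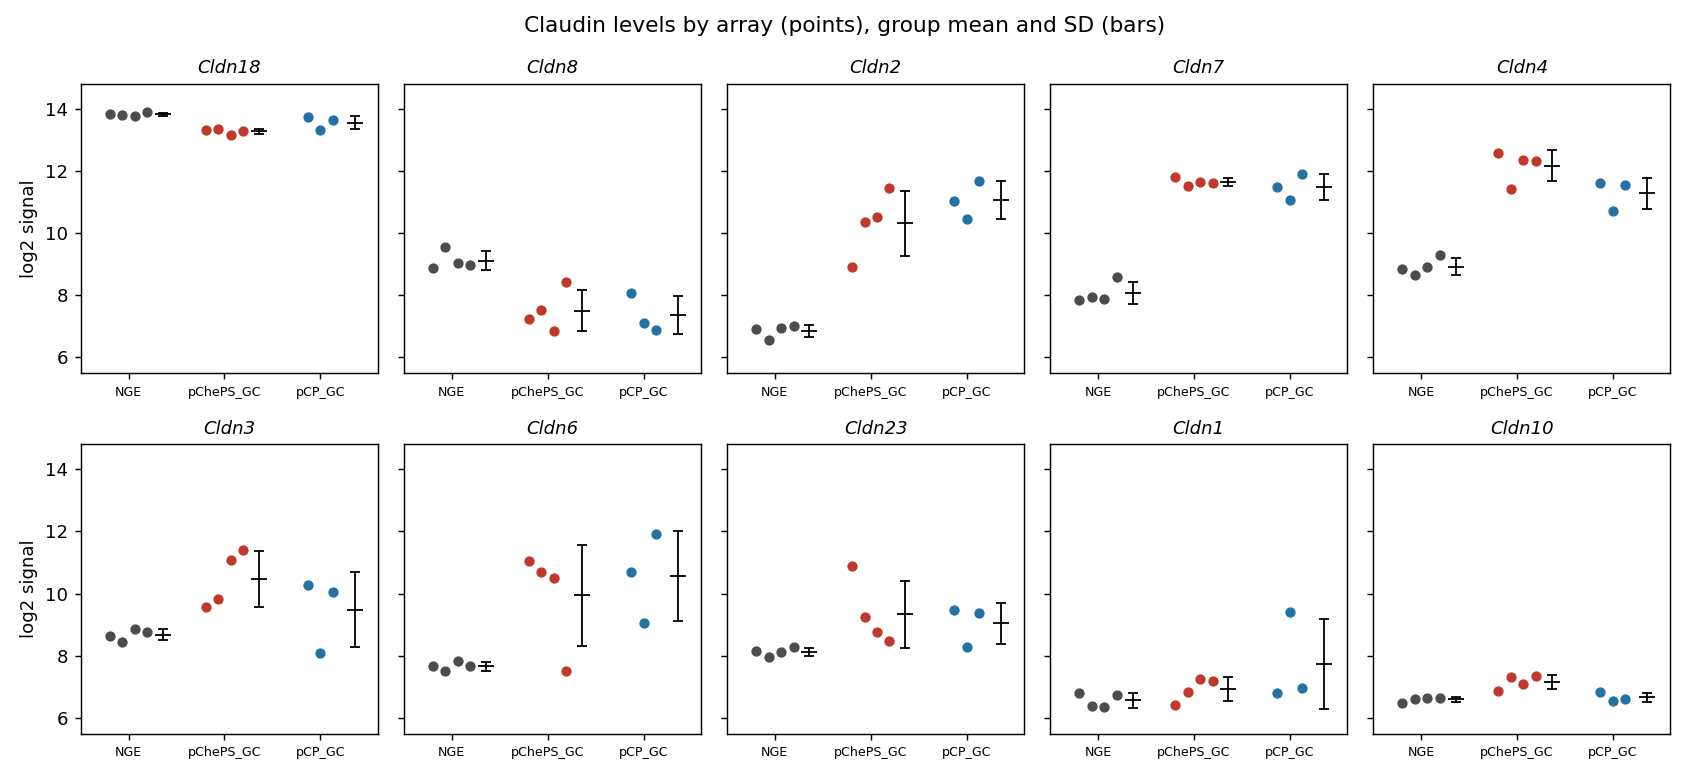
Log2 signal (vertical axis, same scale in every panel) of the 10 claudins in NGE, pChePS_GC and pCP_GC; points are single arrays, and the bar beside them is the group mean with its SD (n = 4, 4 and 3). Cldn2, Cldn4 and Cldn7 are higher in every tumour array, Cldn8 is lower in every tumour array, and 1 pChePS_GC array reads 7.53 for Cldn6, at the level of NGE. Cldn23 is also higher and Cldn18 also lower in every tumour array, by small margins at the nearest arrays.

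Cldn6, the embryonic claudin, was the most uneven of the 10 among tumours. Its signals were 7.66, 7.5, 7.84 and 7.68 (NGE), 11.05, 10.70, 10.50 and 7.53 (pChePS_GC) and 10.70, 9.05 and 11.93 (pCP_GC). Of the 7 tumour arrays 6 were above NGE, and pChePS_GC replicate 4 was within the NGE range; the tumour arrays spanned 4.4. Cldn6 rose by 2.27 in pChePS_GC (SE 0.75, 4.84-fold, limma adjusted p = 0.0329) and by 2.89 in pCP_GC (SE 0.81, 7.4-fold, limma adjusted p = 0.0127). The pChePS_GC call was lost without any 1 of the 4 NGE arrays or without pChePS_GC replicate 1, 2 or 3 (limma adjusted p = 0.0623 to 0.0835), and without pChePS_GC replicate 4 the rise was 3.08 (limma adjusted p = 0.00139). The pCP_GC call was lost without pCP_GC replicate 3 (2.20, limma adjusted p = 0.0569).

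Cldn23 had signals of 8.15, 7.95, 8.11 and 8.28 (NGE), 10.88, 9.24, 8.77 and 8.47 (pChePS_GC) and 9.49, 8.29 and 9.38 (pCP_GC). No tumour array overlapped NGE, though the lowest (8.29) was just above the highest NGE array (8.28). Its differences were 1.22 in pChePS_GC (SE 0.45, limma adjusted p = 0.0509) and 0.93 in pCP_GC (SE 0.49, limma adjusted p = 0.133), neither past the threshold. The pChePS_GC difference passed without replicate 3 (limma adjusted p = 0.0434) or 4 (0.0246), or without pCP_GC replicate 2 (0.0416), and was 0.71 without replicate 1 (0.0677). The pCP_GC difference passed without pChePS_GC replicate 1 (0.0179), which enters through the shared spread, and with only NGE and pCP_GC fitted (0.0172); array weights brought both differences past it (0.0189 and 0.00857).

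Cldn1, a barrier claudin best known from the epidermis, had signals of 6.82, 6.39, 6.35 and 6.75 (NGE), 6.41, 6.85, 7.25 and 7.18 (pChePS_GC) and 6.81, 9.40 and 6.98 (pCP_GC). Only pCP_GC replicate 2 stood clear of the other 10 arrays. The differences were 0.34 in pChePS_GC (limma adjusted p = 0.575) and 1.15 in pCP_GC (limma adjusted p = 0.0816), and the latter was 0.31 without pCP_GC replicate 2. It passed with quantile normalization (0.0481) and without pCP_GC replicate 1 (0.0317) or 3 (0.0472), settings that keep that array.

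Cldn10, whose variants form cation or anion pores, had signals of 6.50, 6.61, 6.66 and 6.66 (NGE), 6.86, 7.31, 7.09 and 7.34 (pChePS_GC) and 6.84, 6.56 and 6.60 (pCP_GC). The pChePS_GC arrays lay above all others by a narrow margin. Cldn10 rose by 0.54 in pChePS_GC (SE 0.12, 1.46-fold, limma adjusted p = 0.00437), and its difference in pCP_GC was 0.06 (95% interval -0.22 to 0.34, limma adjusted p = 0.698), turning to -0.15 with each array centred on its median. Over all alternatives the pCP_GC difference ran from -0.15 to 0.29 and never passed. On its other probe set NGE averaged 6.65 ± 0.06 (SD, n = 4), pChePS_GC 7.0 ± 0.18 (SD, n = 4) and pCP_GC 6.63 ± 0.06 (SD, n = 3), with pChePS_GC again the highest. These are dim values: by the same receptor-gene level (7.24 in NGE, 6.99 in pChePS_GC, 6.86 in pCP_GC), Cldn1 and Cldn10 were below it in NGE, Cldn1 in pChePS_GC and Cldn10 in pCP_GC.

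Counted together, 6 of the 10 claudins were higher and 2 lower in pChePS_GC than in NGE, and 2 did not pass; the share over all genes was 42.1%, with 18.7% higher and 23.4% lower. In pCP_GC 4 were higher and 1 lower and 5 did not pass, beside 51.8% of all genes, 20.0% higher and 31.8% lower. The 4 that rose in both were Cldn2, Cldn4, Cldn6 and Cldn7. The median change of the 10 claudins was 1.5 in pChePS_GC and 1.04 in pCP_GC, against -0.10 and -0.12 over all genes. These comparisons share the NGE arrays, and the genes were picked with them in view, so nothing is read from the counts. The changes are log2 differences from the limma fit, as drawn in the plot of intervals.

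**Figure D2:**
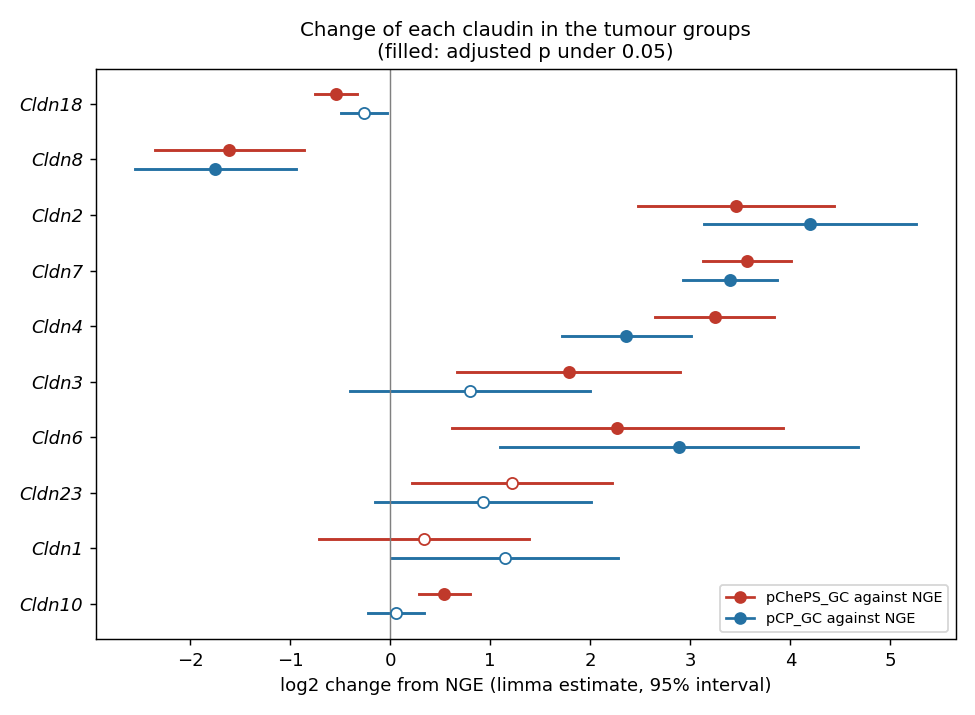
Log2 change from NGE (horizontal axis) of each claudin in pChePS_GC (red) and pCP_GC (blue), with the 95% interval of the limma fit; filled points have an adjusted p under 0.05. Cldn7 has the narrowest interval of the large rises (3.13 to 4.01 in pChePS_GC). Cldn6 has the widest in each comparison (0.62 to 3.93 in pChePS_GC and 1.1 to 4.68 in pCP_GC).

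Between the tumour groups, which differ in floxed Smad4 and in the floxed Cdh1 alleles, 0 of the 10 claudins passed (limma adjusted p), where 0.366% of all genes, 73 of them, did. At an unadjusted p under 0.05 the limma fit had 3 claudins, Cldn4, Cldn10 and Cldn18, beside 3294 of all 19938 genes. The count over all genes at an adjusted p under 0.05 ran from 26 to 154 when single arrays were left out. The difference, pChePS_GC minus pCP_GC, was 0.88 for Cldn4 (95% interval 0.24 to 1.53, limma adjusted p = 0.191, exact permutation p = 0.114). For Cldn10 it was 0.48 (95% interval 0.21 to 0.76, limma adjusted p = 0.131, exact permutation p = 0.0571). Cldn10 was the only claudin of the 10 whose tumour groups did not overlap, with 6.86 the lowest in pChePS_GC and 6.84 the highest in pCP_GC. The share of all genes without such overlap was not counted, so nothing is read from this. For Cldn18 it was -0.27 (95% interval -0.50 to -0.04, limma adjusted p = 0.239, exact permutation p = 0.0857). The two-sided permutation test, run for all 10 claudins over 35 arrangements, can go no lower than 0.0286, and the other 7 claudins gave 0.286 or more. For Cldn7 the interval of the difference was -0.30 to 0.64, while for Cldn6 it was -2.40 to 1.18 and for Cldn2 -1.80 to 0.32, which reach past a 2-fold difference. Among single arrays, pCP_GC replicate 2 was the lowest of the 7 tumour arrays for 5 claudins (Cldn3, Cldn4, Cldn7, Cldn10 and Cldn23) and the highest for Cldn1. How often it was lowest over all genes was not counted, so nothing is read from this. Its mean level was 11.51 for fibroblast genes (10.46 and 10.69 in pCP_GC replicates 1 and 3) and 11.54 for epithelial identity genes (12.19 and 11.92). For chief cell genes it was 9.48 (8.32 and 7.64). The part of these levels in its claudin values was not tested.

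Other claudins and claudin-domain genes were listed by name, and 16 of 21 were measured. In pChePS_GC 0 were higher and 4 lower (median -0.21) and in pCP_GC 0 were higher and 10 lower (median -0.36) by limma, and at an unadjusted p under 0.05 the higher ones were 1 (Cldn5) and 0. Over all genes 18.7% were higher and 23.4% lower in pChePS_GC, and 20.0% and 31.8% in pCP_GC. The lower counts of these 16 genes turned on the scaling: 13 and 12 with each array centred on its median, and 6 and 5 with quantile normalization, with medians below 0 in each. Centred on the median, 9101 and 9716 of all 19938 genes were lower. The 1190 receptor genes used as a dim reference had median changes of -0.15 and -0.22, and the mean level of the 16 genes was 7.17 to 7.57 across arrays. Cldnd1, a claudin-domain protein, had the largest called change of this list, with a difference of -0.77 in pChePS_GC (limma adjusted p = 0.000143) and -0.29 in pCP_GC (0.0346, lost without NGE replicate 1 or 4, pCP_GC replicate 1 or 2, at 0.0848 to 0.12). Cldn14, known from the inner ear and kidney, and Cldn11, known from myelin and testis, were both lower in pCP_GC at -0.57 (limma adjusted p = 0.00135 and 0.000671) and had differences of -0.21 and -0.19 in pChePS_GC that did not pass. In pChePS_GC both passed with each array centred on its median (-0.39, limma adjusted p = 0.00839, and -0.36, 0.00655) and with quantile normalization (-0.34, 0.0114, and -0.30, 0.0076). Cldn11 also passed there with array weights (0.026) and without pChePS_GC replicate 4 (0.0329). Cldn5, the claudin of blood vessels, had differences of 0.95 in pChePS_GC (limma adjusted p = 0.0566) and 0.23 in pCP_GC (0.646), beside 10 of 10 endothelial genes that rose in each. The Cldn5 difference in pChePS_GC passed without replicate 2 (0.0401) or 4 (0.0171) of that group and with array weights (0.0349).

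**Figure D3:**
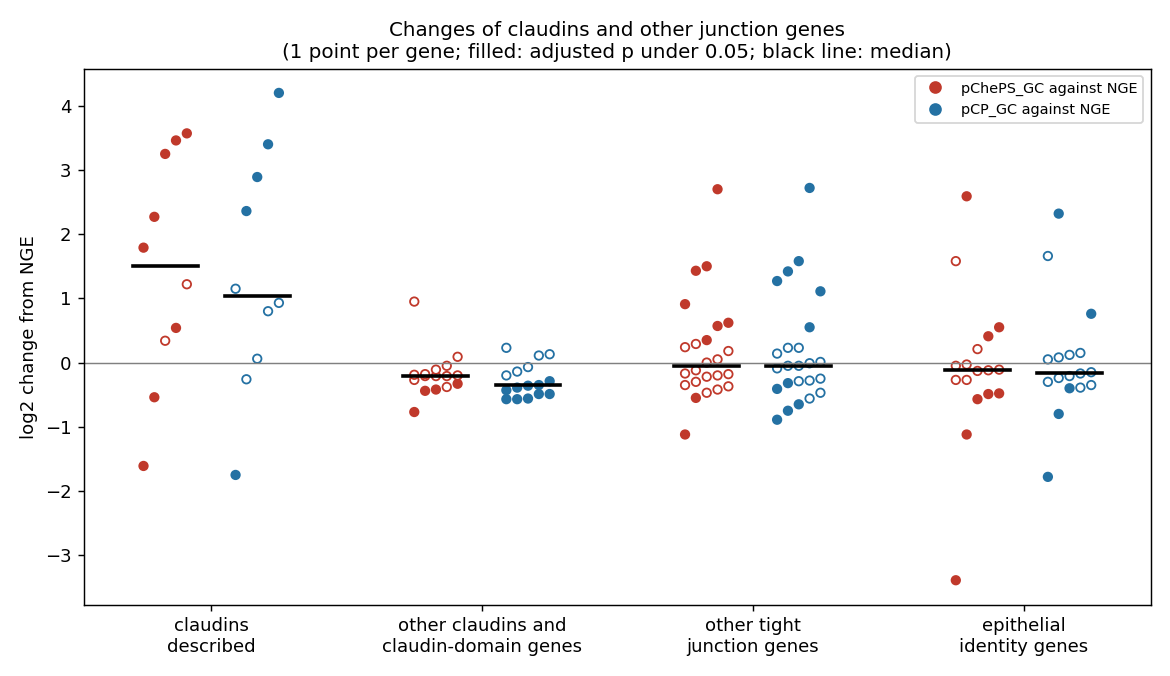
Log2 change from NGE (vertical axis) of the 10 claudins, 16 other claudins and claudin-domain genes, 24 other tight junction genes and 17 epithelial identity genes in pChePS_GC (red) and pCP_GC (blue); each point is a gene, filled where the adjusted p is under 0.05, and black lines are medians. The claudin medians are 1.5 and 1.04 and those of the other claudins -0.21 and -0.36.

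Of 24 other tight junction genes, 7 were higher and 2 lower in pChePS_GC (median -0.06) and 6 higher and 5 lower in pCP_GC (median -0.05). The shares over all genes were 18.7% higher and 23.4% lower in pChePS_GC, and 20.0% and 31.8% in pCP_GC. With each array centred on its median, 6 and 8 of the 24 were lower, beside 9101 and 9716 of all 19938 genes. Marveld3, a partner of occludin, rose by 1.43 (limma adjusted p = 1.15e-05) and 1.42 (2.41e-05), Ildr1, a protein of tricellular corners, by 1.5 (0.00709) and 1.58 (0.00596), and Jam2, an adhesion molecule also of vessels, by 2.70 (4.15e-05) and 2.72 (7.63e-05). The Jam2 mean in NGE, 6.95, lay under the receptor-gene level of 7.24, so its rises are lower bounds where that level is background. Ocln, which encodes occludin, had differences of -0.35 (0.191) and -0.56 (0.057). The Ocln difference passed in pChePS_GC without its replicate 1 (0.0116) and with array weights (0.0496). In pCP_GC it passed without pChePS_GC replicate 1 (0.00866) or 4 (0.0458), with each array centred on its median (-0.77, 0.018), with only NGE and pCP_GC fitted (0.0122) and with array weights (0.014). Tjp1, the scaffold ZO-1, was 0.35 higher in pChePS_GC (limma adjusted p = 0.0499), a call lost with any NGE array left out, with pChePS_GC replicate 1, 2 or 4 or pCP_GC replicate 1 or 3 left out (0.0555 to 0.125) and with arrays centred on their medians (0.18, 0.334). The Tjp1 difference in pCP_GC was 0.23 (0.202), which passed without pCP_GC replicate 2 (0.0479) and with array weights (0.0187). Over all alternatives that difference ran from 0.01 to 0.37 (limma adjusted p up to 0.957).

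Of the epithelial identity genes, Epcam, an adhesion protein that binds Cldn7, rose by 0.55 in pChePS_GC (limma adjusted p = 0.00668) and 0.76 in pCP_GC (0.00146). Krt7, a keratin of ducts, rose by 2.59 (0.000742) and 2.32 (0.00193), and Dsp, a desmosome plaque protein, was lower at -1.12 (2.35e-05) and -0.80 (0.000379). Cdh1, the floxed gene that encodes E-cadherin, was lower in both, with differences of -3.39 (0.000315) and -1.78 (0.0137, lost at 0.0585 without pCP_GC replicate 3). The place of its probe set relative to the floxed exons was not analysed here.

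Of 20 measured genes that regulate claudins or epithelial junctions, 5 rose and 7 fell in pChePS_GC (median -0.06) and 5 rose and 8 fell in pCP_GC (median -0.07). Over all genes 18.7% rose and 23.4% fell in pChePS_GC, and 20.0% rose and 31.8% fell in pCP_GC. Nothing is read from these counts. Zeb1 and Zeb2, repressors of junction genes, rose by 2.05 and 2.70 in pChePS_GC (limma adjusted p = 0.000763 and 2.59e-06) and by 2.21 and 3.12 in pCP_GC (0.000768 and 2.59e-06). Zeb2 averaged 6.60 in NGE, under the receptor-gene level of 7.24, and its rises are lower bounds where that level is background. These rises stand beside those of Cldn4 and Cldn7, and beside the higher fibroblast genes, whose cells also express Zeb factors; their part in the Zeb rises was not tested. Klf4, a factor of differentiated epithelium, was lower at -1.98 (2.22e-05) and -1.62 (0.000167). Snai2, another repressor, had a difference of -0.01 in pChePS_GC (limma adjusted p = 0.945; 0.10 with quantile normalization) and was higher by 1.11 in pCP_GC (0.000153). Its tumour difference was -1.12 (limma adjusted p = 0.00848), the only regulator of the 20 that passed between tumour groups, and it was lost with only the tumour groups fitted (0.155). Snai2 averaged 6.99 in NGE and 6.98 in pChePS_GC, under the receptor-gene levels of 7.24 and 6.99, so the size of both differences is a lower bound where those levels are background.

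Several claudins lie beside another claudin on their chromosome, and the neighbours were compared. Cldn3 and Cldn4 are adjacent on chromosome 5, and both rose in pChePS_GC. Cldn6 lies beside Cldn9 on chromosome 17, and for Cldn9 NGE averaged 7.60 ± 0.12 (SD, n = 4), pChePS_GC 7.49 ± 0.17 (SD, n = 4) and pCP_GC 7.54 ± 0.10 (SD, n = 3). Its differences of -0.11 and -0.07 did not pass. Cldn8 lies beside Cldn17 on chromosome 16, which had differences of -0.20 in pChePS_GC (limma adjusted p = 0.244) and -0.43 in pCP_GC (0.0309). The Cldn17 call in pCP_GC was lost with quantile normalization (-0.20, limma adjusted p = 0.23) and without NGE replicate 1, 3 or 4 or pCP_GC replicate 1 or 3 (0.0526 to 0.109). Cldn1 lies beside Cldn16, also on chromosome 16, which had differences of -0.18 and -0.14 that did not pass, the latter turning to 0.09 with quantile normalization. With each array centred on its median, Cldn9 (-0.29) and Cldn17 (-0.38) passed as lower in pChePS_GC and Cldn16 (-0.36) in both. Cldn16 (means 6.34, 6.16 and 6.20) and Cldn17 (6.83, 6.63 and 6.40) lay under the receptor-gene level in all 3 groups (7.24, 6.99 and 6.86), so their differences are between values not shown to be above background. The receptor genes themselves had median changes of -0.15 and -0.22. Cldn9, Cldn16 and Cldn17 were named as neighbours, outside the rule for named genes.

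**Figure D4:**
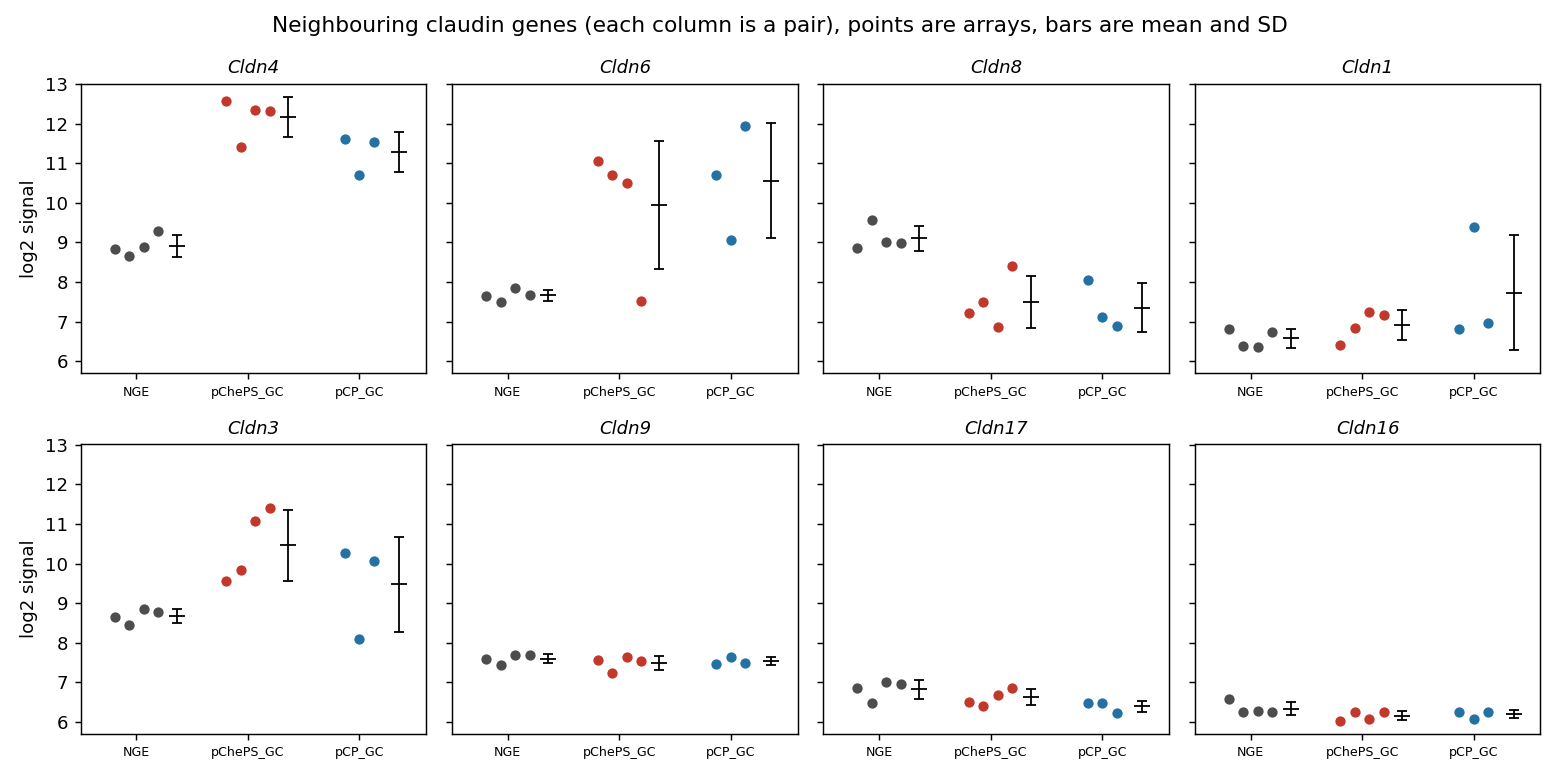
Log2 signal (vertical axis) of 4 claudins (top row) and the claudin beside each on its chromosome (bottom row) in the 3 groups; points are arrays, bars are group mean and SD. Cldn9, with a mean of 7.60 in NGE, stays near that level where Cldn6 rises.

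Likeness was ranked by Pearson's r across the 11 arrays, with predicted gene models (symbols of Gm plus digits or ending in Rik) left out. The genes most like Cldn18 among the rest were Erp44 and Bace2 (both 0.967), Slc6a9 (0.963), Sprr2b (0.96) and Id1 (0.959). All 5 had lower levels in both tumour groups than in NGE, and the differences were -0.99 and -0.51 for Erp44, an endoplasmic reticulum chaperone, and -1.93 and -1.24 for Id1, a target of BMP signals. For Cldn2, the claudin with the largest mean rise, they were Stil (0.993), Cftr (0.989), Faxc (0.987), Ncaph (0.986) and Ube2c (0.986). Cftr, a chloride channel, had differences of 4.46 and 5.5, while Stil, a centriole protein, had 1.63 and 1.97. The 11 points share the 3 groups, and r is given as a description.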

How the data were processed

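Total RNA of 11 mouse stomach samples was hybridised to Affymetrix arrays after biotin labelling, per the labels. The deposited values are 1 log2 signal per probe set and array; log2 was inferred from their range (2.878 to 14.557), and the authors' software was Affymetrix Expression Console, per the submitters' processing notes, with an algorithm not given in the sources used here. How the authors' normalization and background correction act on dim levels was not tested. The table held 35556 probe sets, of which 21789 carry 1 gene symbol, 1621 several and 12146 are unnamed here. Each gene took its probe set with the highest mean, giving 19938 genes, and no dim gene was left out.

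A model of the 3 group means over 11 arrays was fitted by limma 3.58.1 (R 4.3.3) (two-sided, Benjamini-Hochberg adjustment over 19938 genes, called at an adjusted p under 0.05). The number of arrays limits the precision. The members and lists were chosen with earlier results of these data known. Named genes are the 10 claudins, up to 3 called genes per list with the largest change, from the lists of other claudins, tight junction, regulators and epithelial identity, and Cldn5, Epcam, Cdh1, Ocln, Tjp1, Snai2 and Zeb1. Lists of other tissues were also counted: of 14 squamous genes 2 rose and 2 fell in pChePS_GC and 1 rose and 4 fell in pCP_GC, of 10 intestinal genes 3 rose and 2 fell and 1 rose and 3 fell, and of 8 pancreatic genes 4 and 5 fell. The shares over all genes were 18.7% higher and 23.4% lower in pChePS_GC, and 20.0% and 31.8% in pCP_GC.

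The fit was tested on simulated data with 200 changed genes of 19938. For pChePS_GC against NGE it recovered 82% of 2-fold and 42% of 1.5-fold changes, with 6.77% of calls false. For pCP_GC against NGE these shares came to 77%, 40% and 5.65%. For pChePS_GC against pCP_GC they came to 82%, 35% and 3.31%. The share of false calls was above the 5% aimed at in the first and second comparison. Each share came from a single simulated set, which is too little to show that the aim is missed. The simulation gave all groups the same spread for a gene. In the data spreads differed, as for Cldn2 (SD 0.20 in NGE and 1.06 in pChePS_GC), and far more genes were called. Alternatives changed the scaling, variance prior, groups fitted, dim filter, probe-set summary, array weights and a replicate block, and single arrays were left out.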

Additional observations from a re-analysis of the deposited data

Results flagged for a closer look

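In 54 groups of 4 arrays tested for an array far from the rest, 3 held one, and about 5% of groups are marked so by chance. Cldn6 in pChePS_GC replicate 4 read 7.53, where the other 3 arrays of the group read 10.50 to 11.05. Cldn7 in NGE replicate 4 read 8.59, where the others read 7.83 to 7.95. Zeb1 in NGE replicate 2 read 7.24, where the others read 7.60 to 7.66. The change of Snai2 from NGE differed between the tumour groups by -1.12 on the log2 scale (limma adjusted p = 0.00848).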

How the results depend on the processing

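For 72 changes of single genes, 1361 values were recomputed under alternatives: 1269 kept their direction and side of the threshold, 34 lost the call, 42 gained it and 16 changed sign, all of the latter in values that had not passed. Several alternatives keep the estimate itself and can change only its p-value. These are the variance prior, the dim filter, the fit of only the groups compared, and leaving out an array of the group not compared. The tally is therefore no measure of how firm the directions are. Between tumour groups Cldn8 was -0.08 with array weights. With single arrays left out, the tumour differences ran from -1.27 to 0.03 for Cldn1, -1.37 to 0.19 for Cldn6, -0.04 to 0.38 for Cldn7, -0.16 to 0.49 for Cldn8 and -0.22 to 0.58 for Cldn23. Against NGE, Cldn10 in pCP_GC was -0.15 with median-centred arrays, ran from -0.03 to 0.11 with single arrays left out and reached 0.29 at most over all alternatives. Snai2 in pChePS_GC was 0.10 with quantile normalization and ran from -0.08 to 0.07, and Cldn16 in pCP_GC was 0.09 with quantile normalization. Without the dimmest 25% of genes, Cldn10, Cldn16 and Cldn17 gave no value.

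With single arrays left out, 7 to 9 of the 10 claudins passed in pChePS_GC, 5 to 7 in pCP_GC and 0 between tumour groups. Of all 19938 genes, 6107 to 8773 passed in pChePS_GC and 8344 to 10627 in pCP_GC with single arrays left out. With array weights 8 claudins passed in pCP_GC, beside 12602 of all genes. Genes called between tumour groups were 0 with only those groups fitted, 188 with array weights and 26 to 154 with single arrays left out: 31, 33, 26 and 28 without NGE replicates 1 to 4, and 30, 154 and 31 without pCP_GC replicates 1 to 3. Centring arrays on their medians moved the median change of all genes from -0.10 to -0.27 and from -0.12 to -0.33, and the share of higher calls from 44.5% to 22.8% in pChePS_GC and from 38.6% to 21.7% in pCP_GC. Over all alternatives, lower calls ran from 3 to 7 and 1 to 9 of 17 epithelial identity genes and from 6 to 10 and 1 to 7 of 10 surface mucous genes in the 2 comparisons. The cause was not tested.

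Same-numbered arrays correlated at -0.155 to 0.156 in their deviations from group means (2 of 10 pairs over 0.1). Arrays with other numbers correlated at -0.381 to 0.32 (6 of 30 pairs over 0.1). With so few arrays per group, these values cannot show whether same-numbered samples share a batch or pairing. With the replicate block, 9, 5 and 0 claudins and 8553, 9610 and 0 genes passed in the 3 comparisons. Under the block, Cldn23 in pChePS_GC (limma adjusted p = 0.044) and Ocln in pCP_GC (0.0488) passed, and Snai2 between tumour groups (0.0921), Cldnd1 (0.0568) and Cldn17 (0.0613) in pCP_GC did not. Dim levels limit Cldn1, Cldn2 and Cldn10 in NGE.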
